A study of Homo sapiens with 6 samples.

Results

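Histone modifiers and chromatin remodelers were taken from the count table by the names of their gene families, and 102 of its 57133 rows were kept. The families were the lysine demethylases (KDM1 to KDM8, with KDM3A left out), the KMT2, KMT5, SETD, EHMT and SUV39H methyltransferases, the histone deacetylases and sirtuins, the DNMT and TET enzymes, and the BRD, SMARC, ARID and CHD genes. Of 127 rows with such names, the 102 that averaged at least 1 CPM (the count scaled to a common library size, with sizes adjusted by TMM) over the 6 libraries were kept, and all 102 were among the 14461 genes tested. The member nearest the limit was BRD7P2, at a mean of 1.41 CPM, and the row nearest below it was KDM7A-DT, at 0.837 CPM. The 25 rows below 1 CPM were mostly pseudogenes, but they also held CHD5 and SIRT4 with few counts, and EHMT2 and SMARCB1, which were listed at 0 in all 6 libraries. EHMT2 has a near-identical copy on 5 alternate contigs of hg38 and SMARCB1 on 1, so their zeros were not read as absence of expression.

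Poly(A) RNA was sequenced from cells of the established human glioblastoma line T98G after knockout of CBX8 with CRISPR-Cas9. The knockout cells carried either the empty vector (CBX8 KO, 3 libraries) or the same doxycycline-inducible vector with V5-tagged WT CBX8 (WT CBX8 re-expression, 3 libraries), and both conditions had received doxycycline at 1 μg/ml for 72 h, so that no untreated or unedited cells were compared. For the libraries with WT CBX8, a genotype label reads wild type, but the titles and the study's methods place CBX8 back in the knockout line, and the titles were used. The sources used here do not say whether the knockout line was a clone or whether the libraries of a condition were separate cultures, so each SD and p-value describes spread between libraries, which may be technical.

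CBX8 is a chromodomain subunit of Polycomb repressive complex 1 (PRC1), which binds chromatin carrying H3K27me3 and contributes to gene repression. Many of the proteins described here also act on chromatin, but some, such as the mainly mitochondrial SIRT3, act mostly elsewhere. Writers such as KMT2A, KMT2C and KMT2D add methyl groups to H3K4. Erasers such as the KDM and HDAC enzymes remove methyl or acetyl groups. DNMT enzymes methylate cytosine and TET enzymes oxidize the methyl group. The SWI/SNF and CHD complexes use ATP to move or evict nucleosomes. KMT2 and SWI/SNF proteins belong to the Trithorax group, which counteracts Polycomb repression in development.

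Total counts lay between 7950190 and 8659796 per library, and the counts of CBX8 itself were 96, 104 and 83 without the WT CBX8 vector and 30372, 31408 and 27791 with it. The mean CBX8 level was 11.7 ± 0.94 CPM in the knockout and 3489 ± 156 CPM with the vector-borne gene (SD, n = 3), and the log2 fold change was 8.22 (standard error, SE, 0.08, edgeR adjusted p = 1.0e-30), in the direction of the labels. Within the re-expression libraries, the counts do not separate vector from endogenous transcripts. The CBX8 KO cells carried the empty vector and had 11.7 CPM, far below the level upon re-expression. The source of these reads was not tested. How the level in CBX8 KO compares with unedited T98G cells was not measured here. Of the markers of a mesenchymal glioma line, VIM (2697 to 2907 CPM), CD44 (2366 to 3064 CPM) and FN1 (529 to 677 CPM) were abundant, whereas the glial markers GFAP (1.66 to 3.43 CPM) and OLIG2 (1.66 to 4.34 CPM) were low, NES was at most 0.48 CPM, and S100B and SOX2 were listed at 0. CD44 was lower upon re-expression (log2 fold change -0.21, edgeR adjusted p = 0.0097) and FN1 higher (0.22, edgeR adjusted p = 0.0031), and the part of this in the results below was not tested. The 12 markers of leukocytes, epithelium, endothelium, neurons and oligodendrocytes summed to 4.04 to 4.42 CPM in CBX8 KO and 4.57 to 6.31 CPM upon re-expression, with 11 of 12 under a mean of 1 CPM and SYT1 the highest at 3.49 CPM. In bulk RNA, fewer cells expressing a gene and less RNA per cell cannot be told apart.

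To ask whether returning CBX8 altered the transcripts of the chromatin machinery, the re-expression and knockout libraries were compared for every member. Most members stayed close to their level in CBX8 KO. The median log2 fold change was 0.02 over the 102 members, against 0.0049 over all genes tested, and the middle of the distribution ran from -0.08 to 0.11 (quartiles). The extremes were -0.35 and 0.71, and 82 members lay within 0.2 log2 units of zero, as did 9794 of the 14461 tested genes. At FDR < 0.05, 10 members were higher upon re-expression (9.80%, where 6.23% of all tested genes were called higher) and 0 were lower (where 6.63% of all tested genes were called lower). At an unadjusted p under 0.05 in edgeR's quasi-likelihood test, 19 members were higher and 7 lower (where 12.7% of all tested genes were higher and 12.7% lower), and DESeq2 and limma voom called 0 members lower as well. The 3 re-expression libraries all lay above the 3 CBX8 KO libraries for 17 members and all below them for 9, where each holds for 14.4% of tested genes. The 95% interval of a member's log2 fold change reached a median of 0.16 to either side, so changes much smaller than this were not detectable at this depth. Mean levels spanned 1.41 to 242 CPM with a median of 50.7 CPM, against a median of 23.3 CPM over all tested genes. Per kilobase of the canonical transcript, the highest mean levels were those of the class I deacetylases HDAC1 (68.4 CPM per kb) and HDAC3 (56.6 CPM per kb), the maintenance methyltransferase DNMT1 (46.0 CPM per kb) and the H3K4 demethylase KDM1A (40.9 CPM per kb), and the lowest was that of KDM7A (0.352 CPM per kb).

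**Figure D1:**
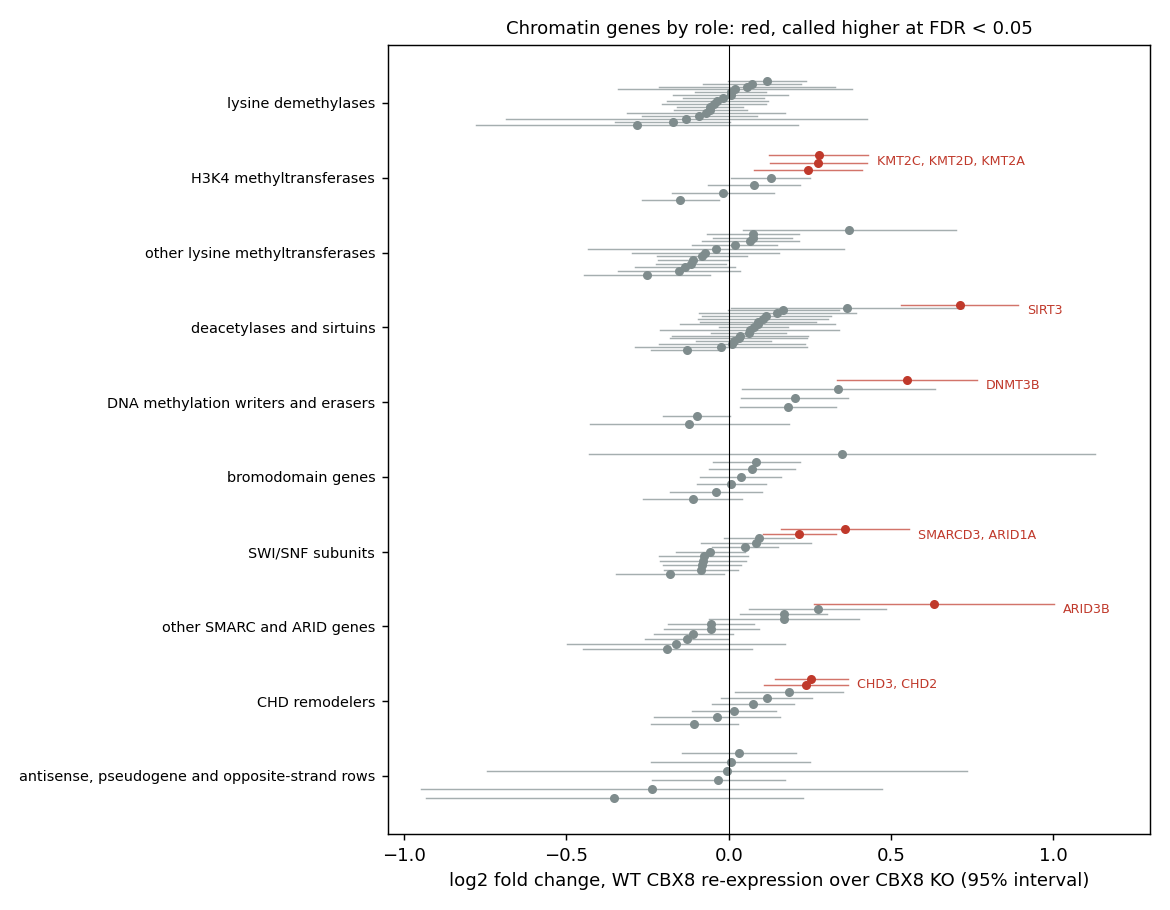
Log2 fold changes of WT CBX8 re-expression over CBX8 KO (x axis) for the chromatin genes, grouped by role (y axis), with points for the estimates and lines for 95% intervals; KDM5D is not drawn. Red marks the 10 genes called higher at FDR < 0.05, which range from 0.22 for ARID1A to 0.71 for SIRT3, while no gene was called lower and most intervals cross zero.

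Among the deacetylases and sirtuins, SIRT3, which acts mainly in mitochondria, had the largest rise of all members. Its level was 23.0, 25.3 and 24.96 CPM in CBX8 KO replicates 1 to 3 and 39.3, 41.5 and 39.3 CPM in the re-expression libraries. The conditions did not overlap and the spread within each was small, with means of 24.4 ± 1.26 and 40.0 ± 1.27 CPM (SD, n = 3 each). The log2 fold change was 0.71 (SE 0.09, 95% interval 0.53 to 0.89, edgeR adjusted p = 1.5e-06), an increase of 63.8%. SIRT3 (ENSG00000142082.15, hg38 chromosome 11 from 215030 to 236931, minus strand) starts 34 bases from PSMD13 on the opposite strand and overlaps 84 bases of exons of RIC8A, also on the opposite strand. Neither neighbour was called, PSMD13 with a log2 fold change of 0.02 (edgeR adjusted p = 0.87) and RIC8A with 0.0035 (edgeR adjusted p = 0.98). Of the other 16 genes of this group none was called, where 6.23% of all tested genes were called higher and 6.63% lower. The class I deacetylases HDAC1 and HDAC2, catalytic subunits of the NuRD, SIN3 and CoREST corepressor complexes, had log2 fold changes of 0.08 (95% interval -0.03 to 0.18) and -0.13 (95% interval -0.24 to -0.02, edgeR adjusted p = 0.13). SIRT1 had 0.09 and SIRT6 0.03, both nuclear sirtuins. In total 15 of the 17 log2 fold changes were above zero, with a median of 0.08, where 7397 of the 14461 tested genes were above zero. The count of 15 ranged from 10 to 16 over the other ways of scaling, filtering and correcting and of leaving out a library. The chance of that count was not tested, because members share libraries and are not replicates.

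Among the genes grouped by name as H3K4 methyltransferases, KMT2A, KMT2C and KMT2D rose, by 18.5% to 21.2%, whereas KMT2B, KMT2E, SETD1A and SETD1B did not pass the test. Thus 3 of 7 genes were called higher, where 6.23% of all tested genes were. The 3 genes called have canonical transcripts over 12 kb, and 21.8% of all tested genes of 12 kb or more were called higher. KMT2D, which monomethylates H3K4 at enhancers, had 129, 111 and 144 CPM in CBX8 KO replicates 1 to 3 and 139, 156 and 170 CPM upon re-expression. KMT2C, its paralog, had 83.8, 84.5 and 84.6 CPM and then 86.9, 102 and 118 CPM. KMT2A, which maintains HOX gene expression in development, had 151, 132 and 158 CPM and then 143, 178 and 202 CPM. Of these 3 genes, KMT2C alone had conditions that did not overlap, and its re-expression replicate 1 lay barely above the CBX8 KO libraries. Re-expression replicate 3 was the highest library for all 3 genes. In hg38, KMT2A lies on chromosome 11 from 118436456 to 118526832 (plus strand), KMT2C on chromosome 7 from 152134922 to 152436644 (minus strand), and KMT2D on chromosome 12 from 49018975 to 49060794 (minus strand). Exons of KMT2A share 3654 bases and those of KMT2D 638 bases with another annotated gene on the same strand. Neither of those other genes was listed with counts under its annotated name, so how shared reads were counted is not known. The log2 fold changes were 0.28 for KMT2C (SE 0.07, edgeR adjusted p = 0.012), 0.28 for KMT2D (SE 0.07, edgeR adjusted p = 0.011) and 0.24 for KMT2A (SE 0.08, edgeR adjusted p = 0.045). Without re-expression replicate 3, none of the 3 passed FDR < 0.05 (adjusted p of 0.14 for KMT2C, 0.084 for KMT2D and 0.34 for KMT2A). KMT2C also lost its call without CBX8 KO replicate 1 (0.052), KMT2D without CBX8 KO replicate 2 (0.13), and KMT2A without CBX8 KO replicate 1 (0.097), CBX8 KO replicate 2 (0.26) or re-expression replicate 2 (0.14). KMT2A was also not called by DESeq2 (adjusted p = 0.50) or limma voom (0.067). SETD1A, of a different H3K4 methyltransferase complex, went from 78.9, 84.4 and 83.2 CPM to 75.8, 71.2 and 75.4 CPM, with no overlap and a log2 fold change of -0.15 (edgeR adjusted p = 0.096). KMT2B had 0.13 (edgeR adjusted p = 0.17). The group median was 0.13. The 9 tested partners of these enzymes in the MLL and SET1 complexes, such as WDR5 and HCFC1, had log2 fold changes between -0.14 and 0.08 with a median of -0.05.

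The promoter letters of members called higher are shown for the 3 genes whose RefSeq start (GRCh38.p14) lies at or beside the start of the GENCODE gene, because such starts could be read without ambiguity. Each run below ends at the base before the gene start, reads 5′ to 3′ on the gene's strand and has its CG pairs in capitals. They cover chr11:118436356-118436455 on the plus strand for KMT2A, chr12:49060795-49060894 on the minus strand for KMT2D and, for SIRT3, the bases chr11:236932-236965 on the minus strand that separate its start from that of PSMD13.
KMT2A: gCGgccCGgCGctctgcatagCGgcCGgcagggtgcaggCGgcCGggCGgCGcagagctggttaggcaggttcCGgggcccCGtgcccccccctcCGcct
KMT2D: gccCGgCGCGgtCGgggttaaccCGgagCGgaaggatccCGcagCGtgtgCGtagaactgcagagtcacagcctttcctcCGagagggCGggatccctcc
SIRT3: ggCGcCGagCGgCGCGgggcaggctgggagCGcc
These runs hold 12, 11 and 6 CG pairs in 100, 100 and 34 bases. CpG-rich starts were common among members. Windows from 250 bases before to 50 after a RefSeq start were found for 88 of the member symbols (145 starts), with a median of 28 CG pairs against 14 over all 35116 starts, and 69.0% of them held at least 20 against 41.2% of all starts. Members averaged at least 1 CPM, whereas all starts were not filtered by expression, so the difference may not be particular to members. The part of that filter was not tested. The 11 starts of the members called higher had a median of 31, and 7 of them (63.6%) held at least 20. ARID3B was not matched. The core of the hypoxia response element, searched as ACGTG or GCGTG on both strands, was in 5 of these 11 windows (45.5%), in 55.2% of member windows and in 48.4% of all windows. Many of these starts lie inside the GENCODE gene, as for DNMT3B, CHD2 and ARID1A, and may not be those used in T98G cells.

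Among the DNA methylation writers and erasers, the de novo methyltransferase DNMT3B rose, while the maintenance enzyme DNMT1 did not pass the test. DNMT3B was the 1 gene called of 6, where 6.23% of all tested genes were called higher. DNMT3B had 20.4, 17.1 and 16.1 CPM in CBX8 KO replicates 1 to 3 and 24.6, 27.1 and 26.9 CPM upon re-expression. The conditions did not overlap, with means of 17.9 ± 2.26 and 26.2 ± 1.40 CPM (SD, n = 3). The log2 fold change was 0.55 (SE 0.10, 95% interval 0.33 to 0.76, edgeR adjusted p = 0.00062). The gene lies on chromosome 20 from 32762385 to 32809359 (plus strand). DNMT3A, the other de novo enzyme, was at a lower mean level (0.901 CPM per kb, against 5.08 CPM per kb for DNMT3B), with 7.32, 7.72 and 7.42 CPM and then 9.40, 8.57 and 10.5 CPM. Its libraries did not overlap either, but its log2 fold change of 0.34 did not pass the test (95% interval 0.04 to 0.64, edgeR adjusted p = 0.14). DNMT1 averaged 251 ± 12.4 CPM in the knockout and 234 ± 6.69 CPM with WT CBX8 (SD, n = 3 each), and its log2 fold change was -0.10 (95% interval -0.20 to 0.0052, edgeR adjusted p = 0.22). The TET dioxygenases were not called in the main fit, with log2 fold changes of -0.12 for TET1, 0.20 for TET2 (edgeR adjusted p = 0.10) and 0.18 for TET3 (edgeR adjusted p = 0.10). TET3 passed the threshold without CBX8 KO replicate 3 (0.040), without re-expression replicate 1 (0.021) and with library size alone (0.026). TET2 passed it with library size alone (0.030) and with GC content alone corrected (0.035).

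Among the 11 tested SWI/SNF subunits, SMARCD3 and ARID1A rose, and the ATPases SMARCA2 and SMARCA4 did not pass the test. Thus 2 of 11 were called higher, where 6.23% of all tested genes were. SMARCD3, which encodes the BAF60C subunit, had 20.1, 23.0 and 22.3 CPM in CBX8 KO and 29.6, 27.8 and 26.5 CPM upon re-expression. Its conditions did not overlap and its log2 fold change was 0.36 (SE 0.10, 95% interval 0.16 to 0.56, edgeR adjusted p = 0.012). SMARCD1 and SMARCD2, its paralogs, were at higher mean levels (34.1 and 28.3 CPM per kb, against 13.0 CPM per kb for SMARCD3) and had log2 fold changes of -0.085 and -0.08. Exons of SMARCD3 overlap 606 bases of CHPF2 on the opposite strand, whose log2 fold change was 0.11 (edgeR adjusted p = 0.22). ARID1A, the defining subunit of the canonical BAF complex, had 121, 117 and 118 CPM and then 128, 142 and 144 CPM, without overlap. Its log2 fold change was 0.22 (SE 0.05, 95% interval 0.10 to 0.33, edgeR adjusted p = 0.0079). ARID1B, which takes the place of ARID1A in BAF, had -0.08 and ARID2, of the PBAF complex, 0.08. SMARCA4 had 0.05 (95% interval -0.05 to 0.15) and SMARCA2 -0.08. SMARCD3 lies on chromosome 7 from 151238764 to 151277896 (minus strand) and ARID1A on chromosome 1 from 26693236 to 26782104 (plus strand). SMARCD3 was not called without CBX8 KO replicate 1 (adjusted p = 0.064), without re-expression replicate 1 (0.053) or by DESeq2 (0.088), and ARID1A was not called without re-expression replicate 2 (0.065), with the GC and length correction described below (log2 fold change 0.10, adjusted p = 0.21) or with GC content alone corrected (0.16, adjusted p = 0.060).

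The CHD remodelers and the other ARID and SMARC genes held 3 calls, all higher, where 6.23% of all tested genes were called higher and 6.63% lower. CHD3, an ATPase of the NuRD complex, and CHD2, which is associated with active genes, rose among 8 CHD genes. CHD3 had 143, 126 and 126 CPM in CBX8 KO and 155, 156 and 162 CPM upon re-expression, and CHD2 had 77.1, 70.9 and 65.9 CPM and then 85.2, 79.97 and 87.1 CPM. Neither overlapped between conditions. The log2 fold changes were 0.25 for CHD3 (SE 0.06, edgeR adjusted p = 0.0021) and 0.24 for CHD2 (SE 0.06, edgeR adjusted p = 0.011). CHD4, another NuRD ATPase, had 0.19 (edgeR adjusted p = 0.14), CHD8 0.07 and CHD1 -0.11. The mean level of CHD4 was 6.16 CPM per kb, against 19.6 CPM per kb for CHD3. ARID3B, an ARID-family DNA-binding protein that is not a SWI/SNF subunit, had 4.29, 4.63 and 4.10 CPM and then 6.70, 6.63 and 6.90 CPM. It did not overlap between conditions, and its log2 fold change was 0.63 (SE 0.18, 95% interval 0.26 to 1.00, edgeR adjusted p = 0.018). Its interval was wide, and its counts were 32 to 58 per library. ARID3B lies on chromosome 15 from 74541206 to 74598131 (plus strand), CHD2 on the same chromosome from 92886203 to 93027996 (plus strand), and CHD3 on chromosome 17 from 7884796 to 7912760 (plus strand). CHD2 was not called without CBX8 KO replicate 2 (adjusted p = 0.054), CBX8 KO replicate 3 (0.073) or re-expression replicate 3 (0.056), nor by DESeq2 (0.073). ARID3B was not called without CBX8 KO replicate 1 (0.054), CBX8 KO replicate 3 (0.059) or re-expression replicate 3 (0.053), nor by DESeq2 (0.17). Of the other SMARC and ARID genes, which include the ISWI ATPases SMARCA1 and SMARCA5 and the fork remodeler SMARCAL1, ARID3B was the 1 gene called of 10.

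**Figure D2:**
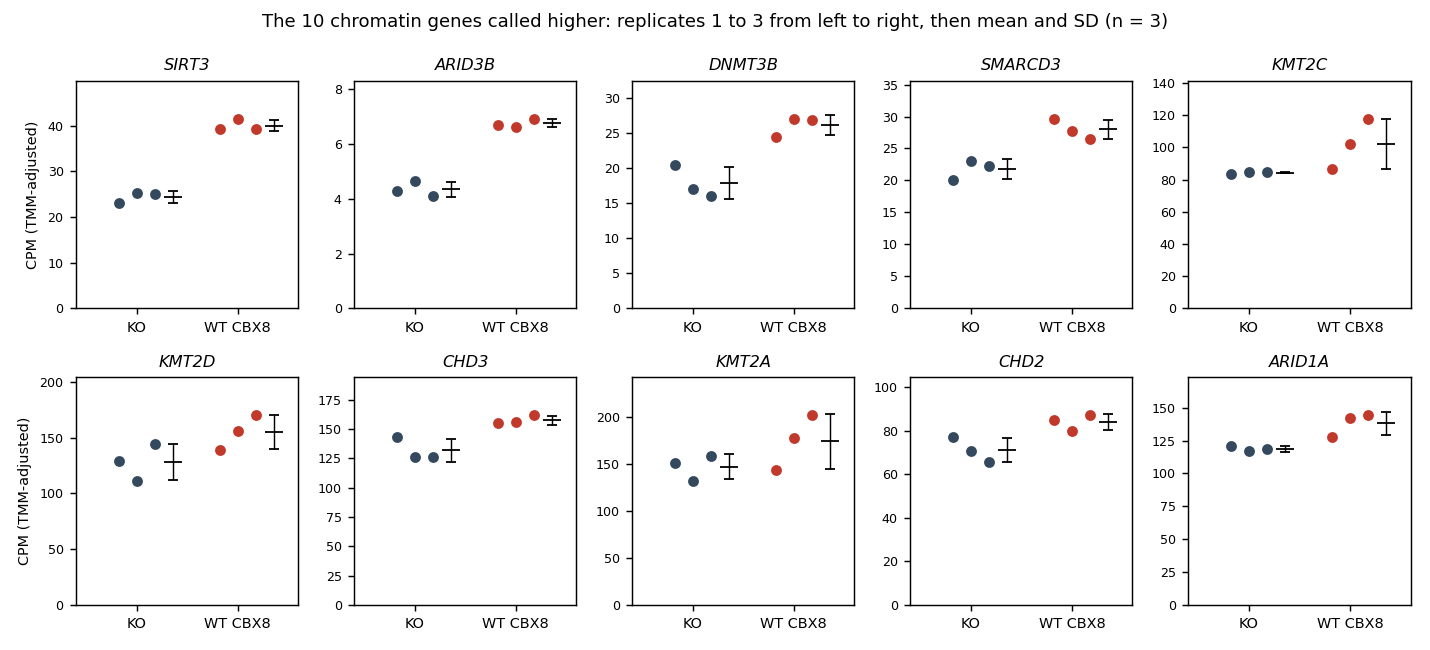
TMM-adjusted CPM (y axis, from 0) of the 10 chromatin genes called higher in each library of CBX8 KO and WT CBX8 re-expression (x axis), with points for replicates 1 to 3 from left to right and bars for the mean and SD (n = 3). The conditions are apart for 8 of the genes, which were selected as called in these same libraries, and overlap for KMT2A and KMT2D. All 3 re-expression libraries lie above all 3 CBX8 KO libraries for 14.4% of all tested genes. SIRT3 moves from 24.4 to 40.0 CPM with little spread.

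None of the 17 demethylases was called in either direction by the main edgeR fit, DESeq2 or limma voom. In edgeR, 6.23% of all tested genes were called higher and 6.63% lower. At an unadjusted p under 0.05 in edgeR, 0 demethylases passed, where 12.7% of all tested genes were higher and 12.7% lower. KDM5B was called higher with library size alone, and KDM2A lower with the GC and length correction described below. The median log2 fold change was -0.03. KDM6A and KDM6B remove methyl groups from H3K27, the mark that the CBX8 chromodomain reads. KDM6A had 10.98, 9.86 and 12.5 CPM in CBX8 KO and 11.99, 10.3 and 12.4 CPM upon re-expression, and KDM6B had 30.7, 34.5 and 32.1 CPM and then 32.6, 31.9 and 33.3 CPM. Both overlapped between conditions, with 95% intervals of the log2 fold change from -0.22 to 0.33 for KDM6A and from -0.17 to 0.18 for KDM6B. KDM2B, which brings a variant PRC1 to CpG islands, averaged 39.6 ± 0.228 CPM in the knockout and 38.4 ± 1.87 CPM with WT CBX8 (SD, n = 3), with an interval from -0.21 to 0.12. KDM1A, of the CoREST complex, had an interval from -0.17 to 0.06.

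Among the other lysine methyltransferases and the bromodomain genes, none was called by the main edgeR fit, DESeq2 or limma voom. In edgeR, 6.23% of all tested genes were called higher and 6.63% lower. At an unadjusted p under 0.05, edgeR gave 1 of the 13 methyltransferases higher and 3 lower, and 0 of the 7 bromodomain genes. Of all tested genes, 12.7% were higher and 12.7% lower at that p. SUV39H1, an H3K9 methyltransferase of heterochromatin, was nearest to being called lower, with 26.9, 30.8 and 27.4 CPM in CBX8 KO and 22.7, 24.2 and 24.6 CPM upon re-expression. The conditions did not overlap, and the log2 fold change was -0.25 (95% interval -0.44 to -0.06, edgeR adjusted p = 0.084). Its paralog SUV39H2 had -0.15, the euchromatic H3K9 methyltransferase EHMT1 -0.08, and SETD2, which trimethylates H3K36, 0.07. BRD2, a BET reader of acetylated histones, had 2.65, 4.87 and 0.512 CPM in CBX8 KO and 4.82, 2.74 and 2.86 CPM upon re-expression. BRD2 has a copy on 4 alternate contigs that matches 99.9% of its bases, so its level is uncertain, and its log2 fold change of 0.35 was not called (edgeR adjusted p = 0.62). The 6 antisense, pseudogene and opposite-strand rows that the names matched, such as KDM4A-AS1 and SETD8P1, gave no calls with edgeR, DESeq2 or limma voom and 0 with an unadjusted p under 0.05 in edgeR. SETD8P1 had the lowest log2 fold change of all members, -0.35, at a mean of 2.17 CPM.

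Transcript length and GC content moved with some of these results. Of all tested genes with a canonical transcript of 12 kb or more, 21.8% were called higher and 5.82% lower, against 4.86% and 6.71% of those under 3 kb. The 4 members that long were KMT2A, KMT2C, KMT2D and TET3, and 3 of them were called higher. In the 275 longest genes the median log2 deviation of a library from the mean of all 6 was -0.02, -0.07 and -0.06 in CBX8 KO replicates 1 to 3 and -0.03, 0.06 and 0.13 in the WT CBX8 libraries 1 to 3. Replicate 3 of the re-expression condition, the highest library for the 3 KMT2 genes, was thus also the highest for long transcripts in general, and re-expression replicate 1 was within the CBX8 KO range. Across genes, which are not independent, the Pearson correlation of the log2 fold change with log2 transcript length was 0.115 over the 102 members and 0.051 over 12692 genes, and with GC content 0.219 and 0.155. With GC content and length corrected in each library, 8 members were higher (where 5.88% of tested genes were called higher) and 6 lower (where 8.91% were called lower). KMT2D (0.07, adjusted p = 0.46), KMT2A (0.14, adjusted p = 0.13) and ARID1A (0.10, adjusted p = 0.21) were then no longer called, and the median of the H3K4 methyltransferases moved from 0.13 to -0.0256. SIRT3 (0.68), ARID3B (0.56), DNMT3B (0.50), SMARCD3 (0.30), CHD2 (0.18), KMT2C (0.18) and CHD3 (0.17) were still called higher, joined by SMARCA1. The 6 called lower were SETD1A (-0.28, adjusted p = 0.00035), SUV39H1 (-0.31, adjusted p = 0.022), DNMT1 (-0.16, adjusted p = 0.014), ARID1B (-0.19), SETD5 (-0.15) and KDM2A (-0.13). The part of length and GC content in the differences between conditions was not tested beyond these corrections.

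**Figure D3:**
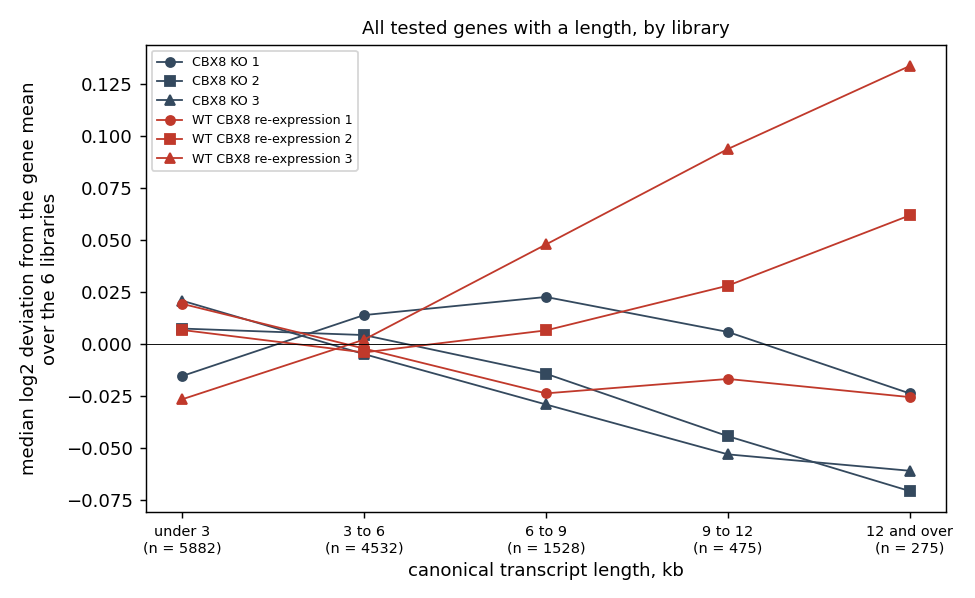
Median log2 deviation of each library from the gene mean over the 6 libraries (y axis) for all tested genes with a known length, in 5 classes of canonical transcript length in kb (x axis), with 1 line per library. In the class of 12 kb and over, WT CBX8 re-expression replicates 2 and 3 reach 0.06 and 0.13, while replicate 1 stays with the CBX8 KO libraries.

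**Figure D4:**
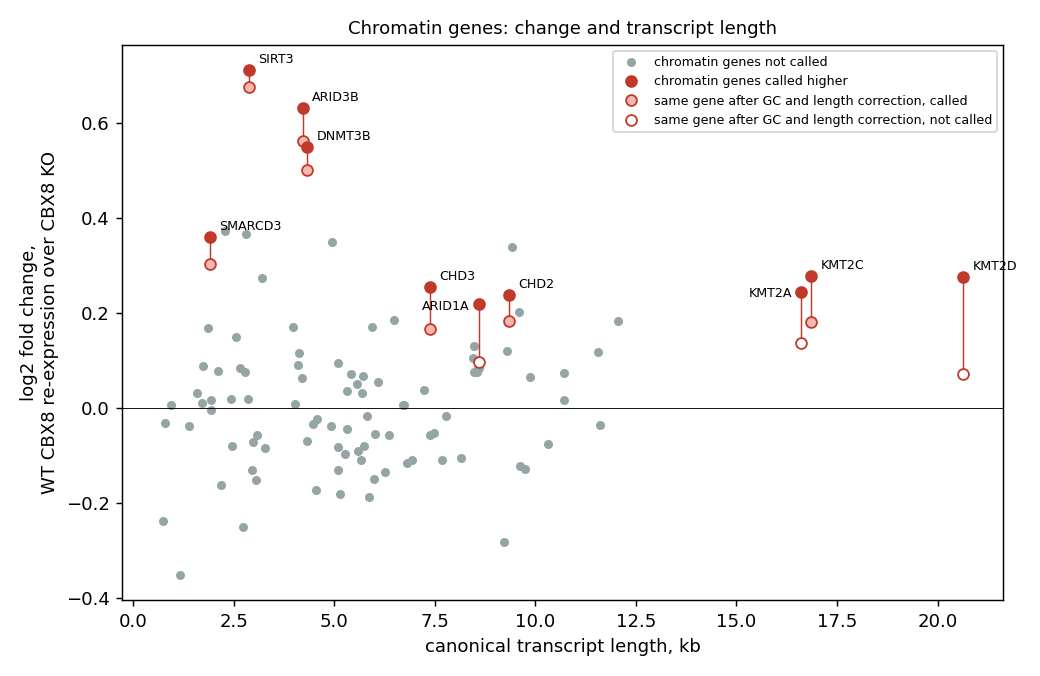
Log2 fold change of WT CBX8 re-expression over CBX8 KO (y axis) against canonical transcript length in kb (x axis) for the chromatin genes, with KDM5D not drawn. Filled red points are genes called higher, joined to their values after GC and length correction, which stay near 0.68 for SIRT3 and drop to 0.07 for KMT2D.

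Other chromatin genes outside these families showed calls in both directions. Of 117 names of acetyltransferases, further methyltransferases and demethylases, and partners of the complexes above, 106 were tested. Their median log2 fold change was 0.0054, with 5 called higher (4.72%) and 7 lower (6.60%), close to the shares of all tested genes given above. RIOX2, a JmjC-domain ribosomal oxygenase also described as a histone demethylase, fell from 109, 111 and 117 CPM to 82.6, 85.9 and 82.4 CPM, and its log2 fold change was -0.42 (SE 0.05, edgeR adjusted p = 3.6e-06). SAP30, of the SIN3 deacetylase complex, had -0.34 (edgeR adjusted p = 0.047) and the arginine methyltransferase PRMT6 -0.32 (edgeR adjusted p = 0.019). The highest log2 fold changes among those called were those of DPF3, a reader subunit of BAF (0.73, edgeR adjusted p = 0.032), BAZ2B, a bromodomain protein (0.66, edgeR adjusted p = 0.023), and NSD1, an H3K36 methyltransferase (0.28, edgeR adjusted p = 0.00079). NSD1 rose from 146, 158 and 148 CPM to 171, 183 and 193 CPM, and its canonical transcript is 13042 bases long. RIOX2 and NSD1 were called under every alternative tried. SAP30 lost its call without CBX8 KO replicates 1 or 2 or re-expression replicates 2 or 3 (adjusted p up to 0.20), PRMT6 without CBX8 KO replicate 1 or re-expression replicate 3 (up to 0.086), BAZ2B without CBX8 KO replicates 1 or 2 or re-expression replicate 3 (up to 0.17), and DPF3 without CBX8 KO replicate 2 or re-expression replicates 2 or 3 (up to 0.19). With the replicate number as a block, SAP30 (adjusted p = 0.062) and DPF3 (0.051) also lost their calls. DESeq2 called none of these 4 genes (adjusted p of 0.16 for SAP30, 0.080 for PRMT6, 0.16 for BAZ2B and 0.21 for DPF3). SAP30 was not called with upper quartile scaling (0.057) or library size alone (0.11) either, nor PRMT6 with library size alone (0.057), nor DPF3 with the GC and length correction (0.067).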

How the data were processed

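RNA-seq of 6 libraries, 3 CBX8 KO and 3 WT CBX8 re-expression, was analysed. Sample titles gave the conditions. The table deposited by the authors holds raw counts, with 57133 gene symbols as rows. Per the labels, Trimmomatic and HISAT2 were used upstream with the hg38 build. The counting program, annotation and strand setting are not given in the sources used here, so reads shared by overlapping or near-identical genes may have been divided between them in ways that cannot be traced. PCR duplicates carry no molecular identifiers.

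edgeR 4.0.16 in R 4.3.3 was used. Its filterByExpr left 14461 genes, which were TMM-normalized, and the conditions were contrasted by the default quasi-likelihood functions (glmQLFit, glmQLFTest) without other covariates. P-values were adjusted over all tested genes by the Benjamini-Hochberg method, with FDR < 0.05 as the threshold. Standard errors were derived from each log2 fold change and its F statistic, and 95% intervals use the t distribution at the test's degrees of freedom. Libraries of a condition differed by more than sampling noise (chi-square per degree of freedom 2.05 to 3.09) and edgeR's biological coefficient of variation was 4.70%. The procedure was tested on simulated data. Lengths and GC content are those of GENCODE canonical transcripts, available for 87.8% of tested genes and for all 102 members. Alternate copies were found with minimap2 2.31 on the 261 alternate contigs of hg38, at 95% or more of the bases matched. RefSeq windows come from GRCh38.p14.

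The members and the gene lists were chosen with earlier results of these data known. The rule for named genes was CBX8, every member called, a list of 31 well-studied genes, and the 3 lowest and 3 highest called among other chromatin genes. The result of 1 gene of that list is not reported here. Other genes were named after their values were seen. As alternatives, counts were scaled by RLE, by the upper quartile or by library size, and the others were 2 other filters, DESeq2 1.42.0, limma 3.58.1 voom, legacy set to FALSE, FDR under 0.01, a replicate block, each library left out, and a GC and length correction. Corrections for length alone and GC alone were added after seeing the data. Same-numbered libraries did not deviate together (correlations of -0.12, -0.11 and -0.11 over 10995 genes), so the numbers were not taken as pairs.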

Additional observations from a re-analysis of the deposited data

How the results depend on the processing

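The 10 members called higher under the main settings were the same 10 with RLE or upper quartile scaling, with either other filter and with legacy set to FALSE. With library size alone 17 were called, with DESeq2 6, at FDR under 0.01 4, with limma voom 9, and with 1 library left out 5 to 10, the lowest without re-expression replicate 3 and 6 without CBX8 KO replicate 1. The share of all tested genes called was computed only for the main fit and the GC and length correction. The other counts here, of members and of other chromatin genes, lack that share. The fit with the replicate number as a block, which the labels do not describe as a pairing, gave 10 higher and 0 lower. Members called lower numbered 6 with the GC and length correction, 1 with length alone (HDAC2) and 3 with GC alone (DNMT1, SETD1A and SUV39H1), and 0 under every other alternative. The member median, 0.0177, was 0.0303 with upper quartile scaling, 0.0733 with library size alone (which moved the median of all tested genes to 0.06), 0.0047 without a filter, -0.0350 with the GC and length correction, -0.0102 with GC alone, and 0.0017 to 0.0315 with 1 library left out. Other chromatin genes called higher, 5 in the main fit, were 11 with library size alone, 2 with DESeq2, 2 at FDR under 0.01, 2 with the GC and length correction and 1 to 6 with 1 library left out. Those called lower, 7 in the main fit, were 4 with library size alone, 4 with DESeq2, 3 at FDR under 0.01, 17 with the GC and length correction, 14 with GC alone and 4 to 7 with 1 library left out. SIRT3, DNMT3B and CHD3 were called under all 18 alternatives, with log2 fold changes of 0.67 to 0.77, 0.48 to 0.65 and 0.17 to 0.32. Among 756 refits of 42 named genes, 675 kept direction and side of the threshold, 51 lost and 12 gained a call, and 18 changed sign, all of the last in genes never called. These were KDM2B (0.0101 with library size alone), KDM6B (-0.0067 without a filter, -0.0019 with DESeq2, -0.1290 with the GC and length correction, -0.0062 with length alone, -0.0876 with GC alone, -0.0337 to 0.0528 leaving 1 library out), SIRT6 (-0.0786 with the GC and length correction, -0.0833 with GC alone, -0.0506 to 0.0936 leaving 1 library out), SMARCA4 (-0.0580 with the GC and length correction, -0.0303 with GC alone), and, leaving 1 library out, BRD2 (-0.1268 to 1.12), KDM6A (-0.0278 to 0.1474) and TET1 (-0.2861 to 0.0042). Group medians that changed sign were those of the demethylases (0.021), the other SMARC and ARID genes (0.0013) and the antisense and pseudogene rows (0.0367) with library size alone, the last also without CBX8 KO replicate 1 (0.0245), the other lysine methyltransferases without CBX8 KO replicate 2 (0.0019), the bromodomain genes without CBX8 KO replicate 3 (-0.0086) or re-expression replicate 3 (-0.0091), and the H3K4 methyltransferases with the GC and length correction (-0.0256). The cause of these changes was not tested.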
